A study of Mus musculus with 4 samples.

Results

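The 9 genes described here encode transcription factors that maintain haematopoietic stem cells: Hlf, Mecom, Mllt3, Meis1, Gata2, Runx1, Erg, Fli1 and Prdm16. They were chosen by symbol, and each matched a single row among the 51912 Ensembl genes in every file. RNA sequencing measured them in long-term haematopoietic stem cells (LT-HSCs) sorted from mice, with 2 libraries from Fam122a knockout (KO) and 2 from wild-type (WT) animals. Per the labels, all animals were of the C57BL/6 strain and 8 to 12 weeks old, the sort gate was LSK CD34- Flk2-, and each library held sorted cells mixed from 3 animals. How the knockout was made, and in which cells, is not given in the sources used here. The series asked which transcripts differ in LT-HSCs that lack Fam122a, a gene whose protein restrains the phosphatase PP2A. KO libraries 1 and 2 were set against WT library 1, and WT library 2 is shown apart because it resembled none of the others.

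Long-term stem cells keep their identity through a small network of transcription factors that bind one another's regulatory regions and hold the cells in a state able to self-renew. GATA2, RUNX1, ERG and FLI1 belong to a group of factors, often called the heptad, that occupy shared enhancers in stem and progenitor cells. MEIS1, HLF, MECOM, PRDM16 and MLLT3 act beside them, and loss of any of several of these genes is known to exhaust stem cells in mice.

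The libraries differed in ways that bear on every value below. Levels are FPKM, that is, fragments counted relative to transcript length and to the size of the library, and they summed to 831933 and 816028 in KO, 1048395 in WT 1 and 1289940 in WT 2. Across 20434 genes, log2 values correlated at 0.97 between the KO libraries, at 0.85 and 0.84 between WT 1 and each KO library, and at 0.06 between the WT libraries. Loci with MSTRG identifiers, which name no gene, held 1.74% and 1.81% of the summed FPKM in KO, 9.14% in WT 1 and 53.9% in WT 2. Low values of single-exon genes implied about 6840000 and 5960000 fragments in KO, 4250000 in WT 1 and 2510000 in WT 2. Fam122a itself was listed at 0 in both KO libraries, against 18.4 FPKM in WT 1 and 7.46 FPKM in WT 2, as the labels say. All 10 markers of the gate and of stem cells were above 0 in both KO libraries and in WT 1, and their levels summed to 446 and 454 FPKM in KO, 429 FPKM in WT 1 and 172 FPKM in WT 2. In WT 2 the gate marker Ly6a (Sca1) and the stem cell marker Procr were at 0 and Kit was at 2.26 FPKM. Other markers of the list stood higher in WT 2 than in WT 1: Fgd5 was at 67.6 FPKM in WT 2 against 3.83 FPKM in WT 1, Ctnnal1 at 51.5 against 11.9 FPKM, and Vwf at 46.2 against 5.45 FPKM. RNA of markers that the gate excludes was present, with Cd34 at 87.7 and 62.1 FPKM in KO, 179 FPKM in WT 1 and 18.2 FPKM in WT 2. Flt3 (Flk2) was at 36.2 and 24.7 FPKM in KO, 26.2 FPKM in WT 1 and 16.1 FPKM in WT 2. Among progenitor markers, Cd48 was at 162 and 129 FPKM in KO against 215 FPKM in WT 1. Il7r was at 27.4 and 32.8 against 12.3 FPKM. All 7 erythroid, 6 neutrophil and 6 B cell markers were also above 0 in both KO libraries and in WT 1. The neutrophil genes S100a8 and S100a9 together held 5.86% and 4.99% of summed FPKM in KO, 12.7% in WT 1 and 0.0197% in WT 2.

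None of the 9 genes passed the test of Fam122a KO against WT 1. The test was limma on log2(FPKM + 1) over 15867 genes with a mean of at least 1 FPKM, called at a Benjamini-Hochberg adjusted p under 0.05. It called 9.83% of all genes tested, 0.454% higher and 9.37% lower in KO, and 0 of the 9. At an unadjusted p under 0.05 stood 1 of the 9 (Prdm16, lower), where 13.2% of all genes were higher and 20.2% lower. The 9 genes lay on both sides: in 5 both KO libraries lay above WT 1 and in 4 both lay below it. Across all genes tested these arrangements were as common, at 42.5% and 43% of genes, so they say nothing particular about the 9. Their median log2 difference was 0.08, against -0.0021 over all genes tested. With a single WT library the spread comes from the KO pair, and WT 1 is assumed to vary like it. The 95% intervals given below thus hold no measure of the variation between WT libraries. For Prdm16 the SE was 0.23 against WT 1 and 0.97 against both WT libraries. In bulk RNA, fewer cells of a type and less RNA per cell cannot be told apart.

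**Figure D1:**
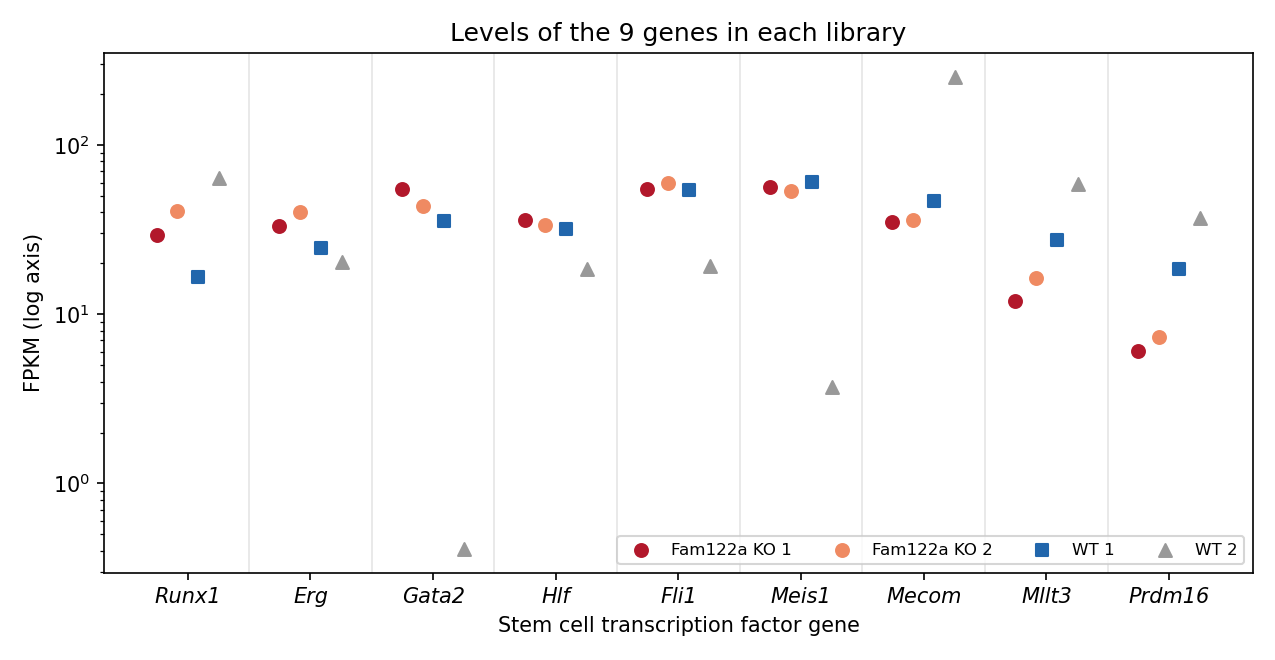
FPKM of each gene (log axis) in the Fam122a KO libraries (circles), WT 1 (squares) and WT 2 (triangles), 1 point per library. KO and WT 1 values run from 6.07 FPKM for Prdm16 in KO 1 to 60.2 FPKM for Meis1 in WT 1, while WT 2 ranges from 0.41 FPKM for Gata2 to 254 FPKM for Mecom.

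By level, the KO libraries and WT 1 carried all 9 transcripts above what 3 fragments would give, a floor of at most 0.219 FPKM in those libraries (Erg in WT 1). In KO 1 the order was Meis1, Gata2, Fli1, Hlf, Mecom, Erg, Runx1, Mllt3 and Prdm16, from 56.5 to 6.07 FPKM. In KO 2 it was Fli1, Meis1, Gata2, Runx1, Erg, Mecom, Hlf, Mllt3 and Prdm16, from 59.3 to 7.38 FPKM. The upper 3 genes and the lower 2 were the same in both, and the 4 in between (Runx1, Erg, Mecom and Hlf) changed places within 29.4 to 41.0 FPKM. In WT 1 the order was Meis1, Fli1, Mecom, Gata2, Hlf, Mllt3, Erg, Prdm16 and Runx1, so Runx1 was the lowest of the 9 there at 16.7 FPKM. The 9 genes together summed to 319 and 331.5 FPKM in KO, 315 FPKM in WT 1 and 475 FPKM in WT 2, and Mecom alone made up 53.3% of the WT 2 sum, against 14.8% of the WT 1 sum.

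Runx1, Erg and Gata2, all heptad genes, were higher in both KO libraries than in WT 1 without reaching the threshold, and the sign of their differences was the same under every scaling tried against WT 1. Runx1 encodes the DNA-binding subunit of core-binding factor, which is required for stem cells to form. It was at 29.4 and 41.0 FPKM in KO, against 16.7 FPKM in WT 1 and 63.7 FPKM in WT 2. Both KO libraries thus lay above WT 1 and below WT 2, and the log2 difference from WT 1 was 1.01 (SE 0.30, 95% interval -0.27 to 2.30, limma adjusted p = 0.184). This was the largest positive difference among the 9, and 91.5% of all genes tested had a lower one. Erg encodes an ETS-domain factor needed for stem cell maintenance. It was at 33.4 and 40.3 FPKM in KO, against 24.5 FPKM in WT 1 and 20.5 FPKM in WT 2. Both KO libraries lay above both WT libraries, with a log2 difference from WT 1 of 0.57 (SE 0.19, interval -0.23 to 1.36, limma adjusted p = 0.202). Gata2, a zinc-finger factor of stem and progenitor cells that also acts in mast cells, was at 55.3 and 43.9 FPKM in KO, against 35.6 FPKM in WT 1 and 0.41 FPKM in WT 2. The log2 difference from WT 1 was 0.46 (SE 0.22, interval -0.46 to 1.38, limma adjusted p = 0.287). The WT 2 value corresponds to an estimated 5.34 fragments, against 780 in WT 1.

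Gata2 RNA is also known from mast cells and basophils, so markers of those and other blood cells are given beside it. Of 6 mast cell and basophil markers, 5 were below WT 1 in both KO libraries and 1 (Cma1, at 0 in WT 1) above it. Their levels summed to 329 and 305 FPKM in KO and 402 FPKM in WT 1. All 7 erythroid markers were above WT 1 in both KO libraries, with sums of 59410 and 79052 FPKM in KO against 51432 FPKM in WT 1, and none was at 0. All 6 neutrophil markers were below it, at 58525 and 50486 FPKM in KO against 149168 FPKM in WT 1, again with none at 0. B cell markers were split, with 4 of 6 above and 2 below WT 1 in both KO libraries, and sums of 1045 and 1389 FPKM in KO against 984 FPKM in WT 1. Over all genes tested, 42.5% were above and 43% below WT 1 in both KO libraries. What part these cells have in the values of Runx1, Erg and Gata2 was not tested.

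The start regions of Runx1 and Erg are shown because these genes had the largest positive differences and start from more than 1 promoter. Runx1 is known to be transcribed from a distal and a proximal promoter, and RefSeq (GRCm38.p6) lists them at chr16:92826025-92826324 and chr16:92697280-92697579 on the minus strand, each window running from 250 bases before to 50 bases after the start. The files give 1 value per gene, so which start was used cannot be read from them. Erg has 3 listed starts, and the window shown, at chr16:95459299-95459598 on the minus strand, is the only one of them with a motif match. Capitals mark matches, on either strand, to the GATA motif AGATAA, the RUNX motif TGTGGT, the ETS motif CCGGAA, the E-box CAGCTG, the MEIS motif TGACAG or the HLF motif TTACGTAA.
Runx1 distal: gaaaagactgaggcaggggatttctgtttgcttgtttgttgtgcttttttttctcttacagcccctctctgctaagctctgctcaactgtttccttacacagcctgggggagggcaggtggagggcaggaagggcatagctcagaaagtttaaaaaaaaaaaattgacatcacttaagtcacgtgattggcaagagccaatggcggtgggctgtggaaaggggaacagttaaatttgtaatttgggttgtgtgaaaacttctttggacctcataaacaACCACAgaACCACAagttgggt
Runx1 proximal: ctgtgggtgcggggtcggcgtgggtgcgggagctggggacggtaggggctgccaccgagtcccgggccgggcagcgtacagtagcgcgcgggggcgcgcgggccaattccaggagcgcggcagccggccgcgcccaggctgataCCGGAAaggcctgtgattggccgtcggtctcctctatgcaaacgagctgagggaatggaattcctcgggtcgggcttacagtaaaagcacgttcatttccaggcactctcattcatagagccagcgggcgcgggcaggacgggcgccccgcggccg
Erg: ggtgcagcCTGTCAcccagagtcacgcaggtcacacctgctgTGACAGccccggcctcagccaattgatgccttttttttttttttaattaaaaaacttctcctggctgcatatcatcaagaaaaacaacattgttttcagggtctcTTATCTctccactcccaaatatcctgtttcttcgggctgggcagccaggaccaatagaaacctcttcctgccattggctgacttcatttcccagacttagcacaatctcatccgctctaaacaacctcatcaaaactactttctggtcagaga

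The distal Runx1 window held the RUNX letters in a tandem pair, read as ACCACA on the gene's strand, at bases 28 to 33 and 36 to 41 after the start. The proximal window held the ETS letters at positions -106 to -101 from its start. The Erg window held the GATA letters at -103 to -98 and the MEIS letters in 2 places, from -242 and from -208. Windows were listed for 8 of the 9 genes, 14 in all. The RUNX letters were in 2 of the 14 windows, ETS in 3, MEIS in 3, E-box in 2, GATA in 1 and HLF in 0. Of all 32851 promoter windows in the table, 16.8% held the RUNX, 14.9% the ETS, 19.2% the MEIS, 16.3% the E-box, 11.2% the GATA and 0.119% the HLF letters. A match describes the letters only, and the motifs do not overlap one another in the windows printed.

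Hlf, Fli1 and Meis1 lay close to WT 1. Hlf, a basic leucine zipper factor whose expression marks the most primitive stem cells, was at 36.3 and 33.5 FPKM in KO, against 31.9 FPKM in WT 1 and 18.6 FPKM in WT 2. The log2 difference from WT 1 was 0.12 (95% interval -0.36 to 0.61, limma adjusted p = 0.512). Fli1, an ETS-domain factor of stem cells and megakaryocytes, was at 55.0 and 59.3 FPKM in KO, against 53.9 FPKM in WT 1 and 19.2 FPKM in WT 2. KO 1 and WT 1 were almost level, and the difference was 0.08 (interval -0.35 to 0.51, limma adjusted p = 0.618). Meis1, a homeodomain partner of HOX proteins, was at 56.5 and 53.6 FPKM in KO, against 60.2 FPKM in WT 1 and 3.71 FPKM in WT 2. Its difference was -0.13 (interval -0.51 to 0.25, limma adjusted p = 0.412). The direction of all these genes turned with the scaling: Hlf and Fli1 went to -0.19 and -0.24 when libraries were scaled to short-span genes, and Meis1 to 0.073 with equal sums of coding genes. All 3 intervals hold 0 and allow changes in either direction.

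Mecom, Mllt3 and Prdm16 were lower in both KO libraries than in either WT library, again without reaching the threshold, and their differences from WT 1 kept their sign under every scaling except that Mecom turned to 1.43 after the subtraction described below. Prdm16, a zinc-finger protein of the PRDM family that sustains stem cells, was at 6.07 and 7.38 FPKM in KO, against 18.5 FPKM in WT 1 and 36.8 FPKM in WT 2. It had the largest difference of the 9, -1.34 (SE 0.23, 95% interval -2.31 to -0.37, unadjusted p = 0.0269, limma adjusted p = 0.114). These values rest on an estimated 377 and 399 fragments in KO and 714 in WT 1. Both KO libraries lay well under WT 1. Mllt3, also called AF9, is a chromatin reader that recruits elongation factors and the methyltransferase DOT1L. It was at 11.9 and 16.3 FPKM in KO, against 27.3 FPKM in WT 1 and 58.9 FPKM in WT 2, a difference from WT 1 of -0.93 (SE 0.29, interval -2.14 to 0.29, limma adjusted p = 0.191). Mecom, the closest relative of Prdm16 and the source of the EVI1 and MDS1-EVI1 proteins, was at 35.0 and 36.3 FPKM in KO, against 46.8 FPKM in WT 1 and 254 FPKM in WT 2. Its KO libraries stood close together, and the difference from WT 1 was -0.38 (SE 0.09, interval -0.77 to 0.01, limma adjusted p = 0.151).

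The only listed Prdm16 start (chr4:154636824-154637123, minus strand) is shown because this gene had the largest difference. None of the 6 motifs was found in it, which says only that these letters are not in this window.
Prdm16: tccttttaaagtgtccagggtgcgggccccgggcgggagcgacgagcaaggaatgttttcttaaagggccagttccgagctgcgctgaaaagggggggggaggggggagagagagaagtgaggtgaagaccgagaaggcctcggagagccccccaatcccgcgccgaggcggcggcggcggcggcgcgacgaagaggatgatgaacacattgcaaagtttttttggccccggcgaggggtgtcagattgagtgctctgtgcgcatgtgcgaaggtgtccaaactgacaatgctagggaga

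**Figure D2:**
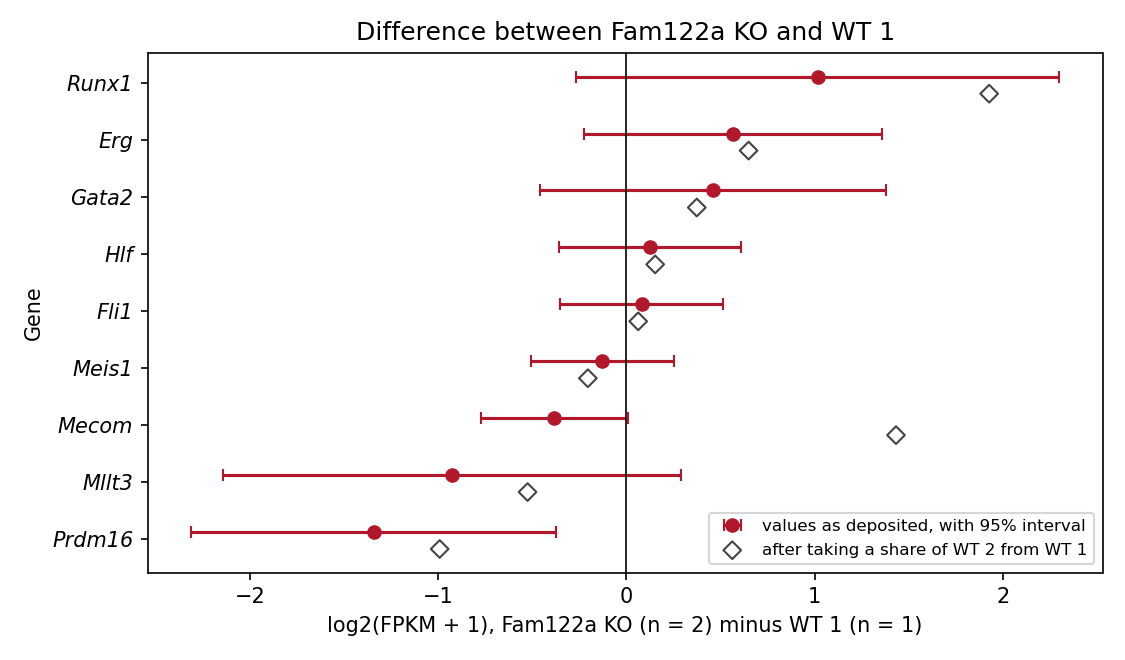
Difference in log2(FPKM + 1), Fam122a KO (n = 2) minus WT 1 (n = 1), for each gene. Circles and bars give the limma estimate with its 95% interval from the values as deposited, and open diamonds the difference after a share of the WT 2 profile was taken from WT 1. Mecom crosses from -0.38 to 1.43, while Runx1 and Prdm16 stay on their sides at 1.93 and -0.99. Hlf, Fli1 and Meis1 lie near 0 and change sign under some scalings.

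Mecom, Prdm16 and Mllt3 are also the 3 genes that span the most genome. Genes of long span stood higher in both WT libraries than in KO, with the values given below, and the part of this in the 3 differences was not tested. In GRCm38, Mecom (ENSMUSG00000027684, chromosome 3, 29951296 to 30548008) has 12427 exonic bp over 597 kb. Prdm16 (ENSMUSG00000039410, chromosome 4, 154316125 to 154636873) has 9321 exonic bp over 321 kb, and Mllt3 (ENSMUSG00000028496, chromosome 4, 87769925 to 88033364) has 12004 exonic bp over 263 kb. These are the longest spans, and the next 2 are almost equal to each other. Erg (ENSMUSG00000040732, chromosome 16, 95359169 to 95586593) has 3466 exonic bp over 227 kb, and Runx1 (ENSMUSG00000022952, chromosome 16, 92601466 to 92826149) has 12025 exonic bp over 225 kb. Meis1 (ENSMUSG00000020160, chromosome 11, 18879817 to 19018985) has 10532 exonic bp over 139 kb, and Fli1 (ENSMUSG00000016087, chromosome 9, 32422204 to 32542861) has 3486 exonic bp over 121 kb. The remaining genes are compact: Hlf (ENSMUSG00000003949, chromosome 11, 90336536 to 90390895) has 6681 exonic bp over 54.4 kb, and Gata2 (ENSMUSG00000015053, chromosome 6, 88193891 to 88207032) has 5398 exonic bp over 13.1 kb. All lie on the minus strand except Gata2. Across the 9 genes the span ranked with the WT 2 level at a Spearman rho of 0.83 and with the difference between KO and WT 1 at -0.55. These describe 9 genes read from the same libraries and carry no p-value.

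Among all coding genes tested, those over 200 kb had medians of 2.22 and 2.49 FPKM in KO, 19.6 FPKM in WT 1 and 115 FPKM in WT 2 (948 genes), and 85.4% of them were below 0 in KO minus WT 1. Their median difference was -2.17, with quartiles of -3.47 and -0.53. Prdm16 at -1.34 and Mllt3 at -0.93 lay inside these quartiles, and Mecom at -0.38 above them with Erg and Runx1. The comparison was repeated over coding genes at a mean of 5 to 100 FPKM in KO, a range that holds all 9. Keeping genes by their KO level bears on the difference itself and leaves out those that are low in KO. There the 375 genes over 200 kb had a median difference of -0.45, with quartiles of -1.18 and 0.14. Within this range Mecom and Mllt3 lay inside the quartiles and Prdm16 below them, while Runx1 at 1.01 and Erg at 0.57 lay above. The place of Mecom and Prdm16 among genes of like span thus depended on which genes were kept. In WT 2 these genes over 200 kb had a median of 100.3 FPKM. Erg (20.5 FPKM), Prdm16 (36.8 FPKM), Mllt3 (58.9 FPKM) and Runx1 (63.7 FPKM) lay below it, and Mecom (254 FPKM) above it. For genes of 50 to 200 kb the median was 0.17 (2065 genes), and for those under 50 kb 0.31 (6126 genes). Gata2, the shortest of the 9, was at 0.46.

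By the ratio of span to exonic length the 9 genes ordered differently. Erg had the highest ratio (65.6), then Mecom (48.0), Fli1 (34.6), Prdm16 (34.4), Mllt3 (21.9) and Runx1 (18.7). Meis1 (13.2) and Hlf (8.14) lay lower, and Gata2 (2.43) lowest. Of the 6 genes above a ratio of 16, 3 were higher and 3 lower in KO than in WT 1, although Fli1 among the higher ones turned with the scaling. Over all coding genes tested the class above 16 had a median difference of -0.95 (2304 genes), and 75.9% of it was below 0. Over those at 5 to 100 FPKM in KO the median was -0.10 (1065 genes), and 57.1% were below 0.

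**Figure D3:**
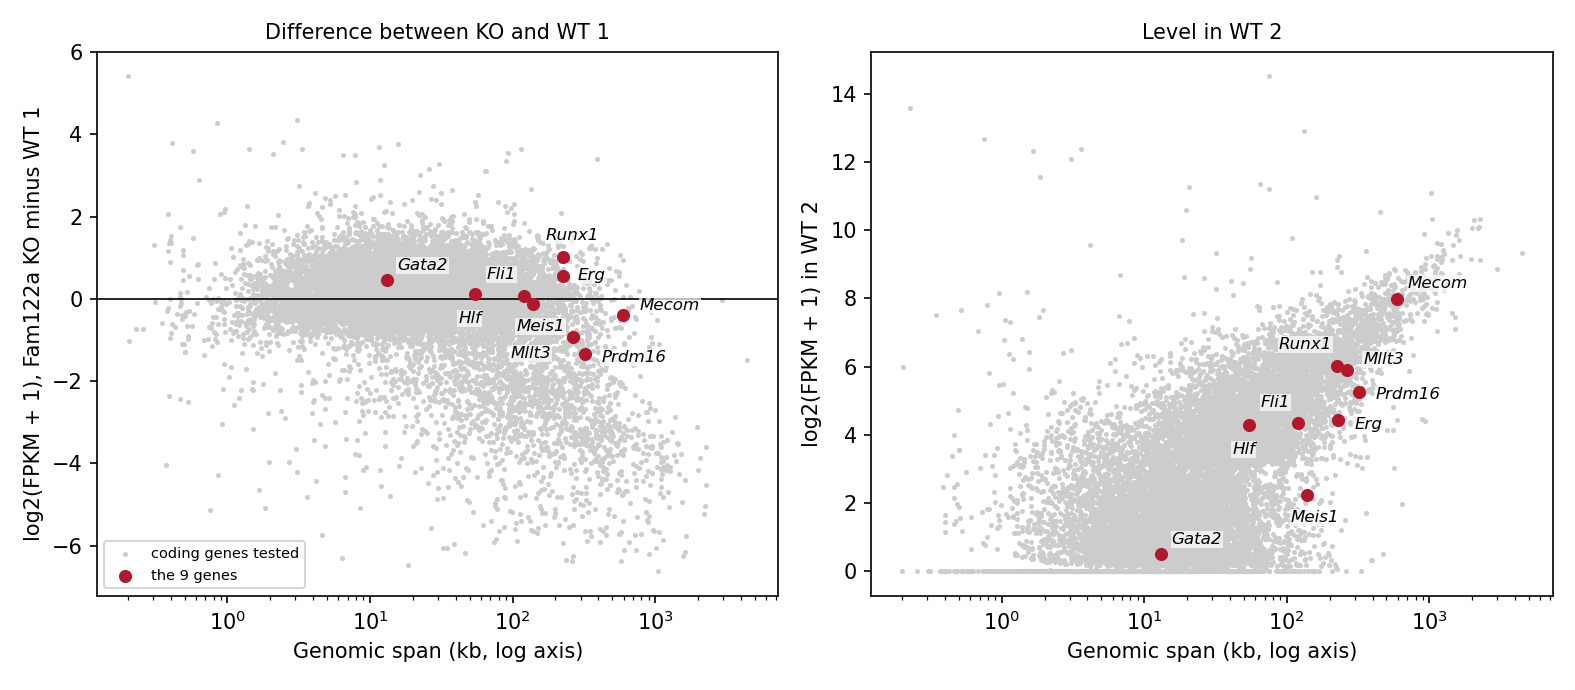
Genomic span (kb, log axis) of coding genes tested (grey) and of the 9 genes (red) against the difference in log2(FPKM + 1) between Fam122a KO and WT 1 (left) and the level in WT 2 (right). Mecom, Prdm16 and Mllt3 have the longest spans and the lowest differences of the 9 (that of Mecom turns to 1.43 after the subtraction), and WT 2 levels are higher at longer spans, with Meis1 at 3.71 FPKM for its 139 kb.

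Taking the WT 2 profile out of WT 1 bore mainly on Mecom and Runx1. The share was set at 0.138 of WT 2 from the MSTRG loci, and WT 1 was then rescaled to its former total. That share came to 74.7% of the WT 1 value of Mecom, which then stood at 12.6 FPKM in WT 1 against 35.0 and 36.3 FPKM in KO, and the difference turned from -0.38 to 1.43. For Runx1 it took 52.7%, and the difference grew to 1.93. Mllt3 lost 29.7% and Prdm16 27.4% of their WT 1 values, and their differences were -0.53 and -0.99. The other 5 genes lost 0.159% to 11.5%. None of the 9 passed the test after it. The subtraction assumes that WT 1 holds the same profile as WT 2, which was not tested. It also assigns all MSTRG signal of WT 1 (9.14% of summed FPKM) to that profile, although the KO libraries held 1.74% and 1.81% at such loci. A smaller share would take less from Mecom and Runx1 in WT 1, and none was tried.

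Genes nested in the introns of these loci gave a second reading of signal there. In the files, 17 annotated genes lie inside a span and off the exons of Mecom (6), Fli1 (6), Meis1 or Prdm16. Most are TEC models, transcripts whose existence still awaits experimental proof. In WT 2 they reached at most 5.48 FPKM, for Gm37024 in Mecom (chromosome 3, 30488426 to 30489293), while Mecom itself stood at 254 FPKM. How fragments from introns were counted for Mecom is not given. The 2 levels therefore cannot be set against each other as intron and exon signal. Gm37474, on the same strand as Fli1 and inside it (chromosome 9, 32525145 to 32526958), was at 6.45 and 6.22 FPKM in KO, against 2.39 FPKM in WT 1 and 0 in WT 2. The kit does not mark strand, so reads of a nested or antisense gene and of its host cannot be told apart.

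Against both WT libraries limma called 0 of 20434 genes, hence 0% of all tested and 0 of the 9, and none of the 9 had an unadjusted p under 0.05. Over all genes 118 higher (0.577%) and 2364 lower (11.6%) did. Of the 9 differences 6 were above 0 and 3 below, as were 46.7% and 53.3% of all genes tested, with Runx1, Erg, Fli1 and Hlf turning under some scalings. The differences of Gata2 (2.81), Meis1 (1.72), Mecom (-1.59), Mllt3 (-1.46) and Prdm16 (-1.82) had SEs of 0.97 to 1.66, larger than in the comparison with WT 1. The KO libraries lay above both WT libraries for Hlf, Gata2, Erg and Fli1, as for 27.1% of genes tested, and below both for Mecom, Mllt3 and Prdm16, as for 37.6%. The direction of Runx1, at 0.08 with both WT libraries, depended on the WT library: it was 1.01 against WT 1 alone and -0.86 against WT 2 alone. Meis1 likewise was at -0.13 against WT 1 and 3.57 against WT 2. Against WT 2 alone, with its spread taken as that of the KO pair, 7 of the 9 passed, 4 higher (Hlf, Meis1, Gata2 and Fli1) and 3 lower (Mecom, Mllt3 and Prdm16), where 76.9% of all 20739 genes tested did, 34.2% higher and 42.7% lower.

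Other stem cell factors outside the 9 were mostly above WT 1. Of 15 on the list, 14 were tested and 0 were called. At an unadjusted p under 0.05 stood 4, where 13.2% of all genes were higher and 20.2% lower. Differences above 0 were found in 13 (median 0.35), where 49.9% of all genes were above and 50.1% below 0. However, 13 of the 14 have a span of at most 16 times the exonic length. Coding genes under a ratio of 4 had a median of 0.30, with 33.6% below 0. Those at 4 to 16 had a median of 0.11, with 43.5% below 0. With short-span scaling, which moved the median of all genes to -0.31, 9 of the 14 were above 0 (median 0.07), where 35.1% of all genes were. The shares of all genes apply to the lists below as well. Myb, a factor of progenitor expansion, was at 115 and 118 FPKM in KO, against 63.3 FPKM in WT 1 and 4.22 FPKM in WT 2 (difference 0.87, limma adjusted p = 0.0608). Etv6, an ETS repressor required by adult stem cells, was at 61.5 and 62.9 FPKM in KO and 39.5 FPKM in WT 1. Lmo2, the bridging protein of the heptad, was at 284 and 299.8 FPKM in KO and 221 FPKM in WT 1. Gfi1, a repressor that restrains stem cell cycling, was at 25.9 and 32.6 FPKM in KO and 14.3 FPKM in WT 1.

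Of 16 cofactors of the 9, 15 were tested, 0 were called (6 at an unadjusted p under 0.05) and 11 were above 0 (median 0.51), or 9 with short-span scaling (median 0.20). Pbx3, a homeodomain partner of MEIS1, was at 4.79 and 3.88 FPKM in KO, against 26.8 FPKM in WT 1 and 225 FPKM in WT 2 (difference -2.39, limma adjusted p = 0.0701). Zfpm1, the GATA cofactor FOG1, was at 30.3 and 22.0 FPKM in KO and 6.00 FPKM in WT 1, and at 0 in WT 2. Aff1 and Aff4, scaffolds of the elongation complex that MLLT3 joins, were at 29.8 and 34.3 FPKM and at 77.8 and 76.7 FPKM in KO, against 16.1 and 46.9 FPKM in WT 1.

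Among the paralogues, 14 of 15 were tested and 1 was called, Meis2, which fell. It was at 0.17 and 0.41 FPKM in KO, against 15.6 FPKM in WT 1 and 117 FPKM in WT 2 (difference -3.69, SE 0.19, limma adjusted p = 0.0353). It passed the filter on low values only through WT 1, the library where it is high, and would not pass a filter of 1 FPKM in 2 of the 3 libraries. Its span is 16.8 times its exonic length, its highest value was in WT 2, and after the subtraction it was set to 0 in WT 1 and was too low to be tested. Mllt1, the relative of Mllt3 also called ENL, was at 23.5 and 23.98 FPKM in KO, against 9.88 FPKM in WT 1 and 0.12 FPKM in WT 2. Ets1, a relative of Erg and Fli1, was at 43.8 and 51.6 FPKM in KO and 19.95 FPKM in WT 1. Meis3 was at 3.71 and 4.36 FPKM in KO and 1.31 FPKM in WT 1. The list had 10 members above 0 and a median of 0.43, or 9 and 0.13 with short-span scaling.

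Of 14 genes reported as targets of the 9, 13 were tested against WT 1, 0 were called (5 at an unadjusted p under 0.05) and 9 were above 0 (median 0.36), or 7 with short-span scaling (median 0.036). Tek, the angiopoietin receptor found on stem cells and vessels, was at 4.43 and 2.74 FPKM in KO, against 41.5 FPKM in WT 1 and 79.7 FPKM in WT 2 (difference -3.24, limma adjusted p = 0.0812). Mfn2, a mitochondrial fusion gene under PRDM16 control, was at 28.5 and 29.5 FPKM in KO and 17.96 FPKM in WT 1. Over the 4 lists together, 1 of 56 genes tested was called (1.79%, beside 9.83% of all genes), and 43 were above 0. Which genes of these lists were called moved with the processing, as did the calls over all genes, so nothing is read from such calls about the lists. Of their genes with a span over 16 times the exonic length, 5 of 10 were below 0, and of the others 8 of 46.

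**Figure D4:**
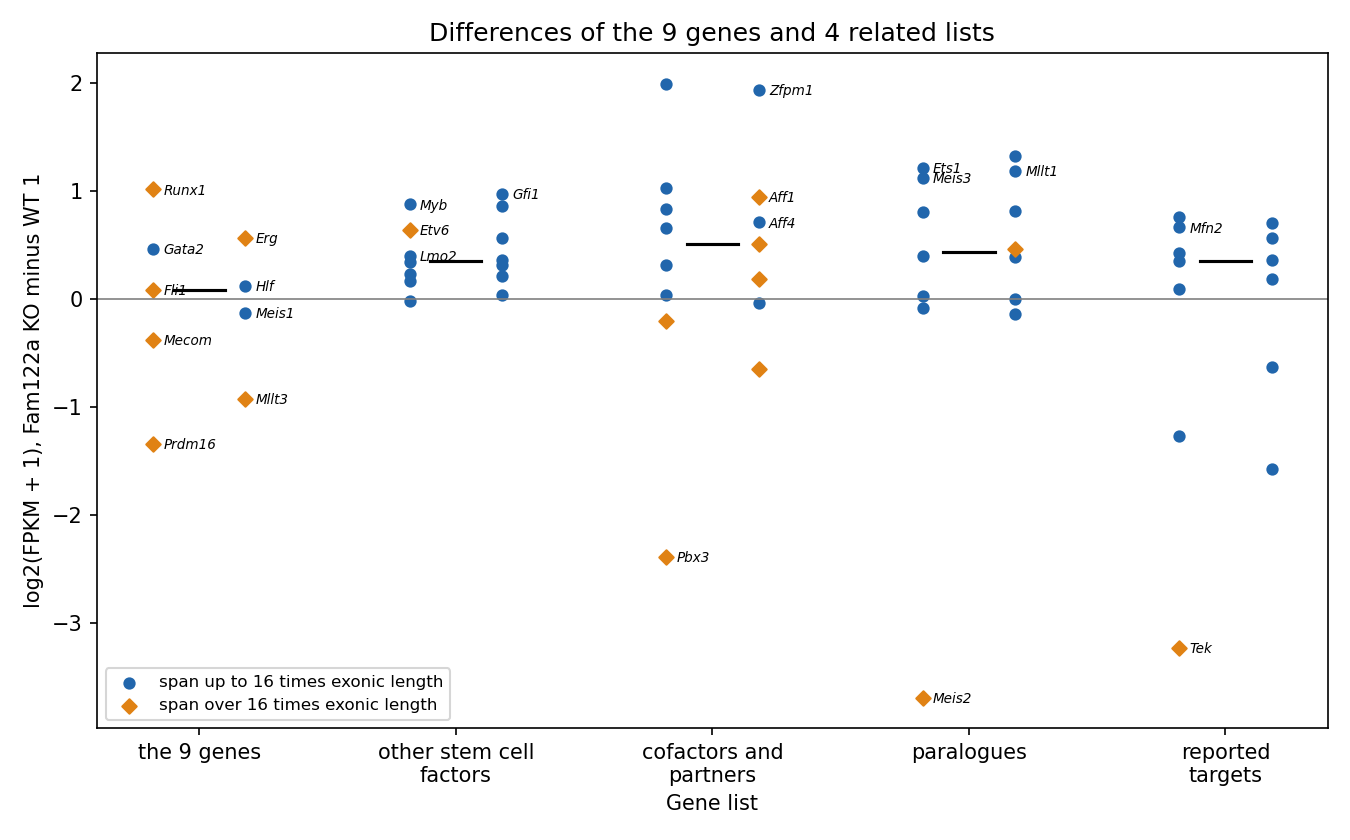
Difference in log2(FPKM + 1), Fam122a KO minus WT 1, for the 9 genes and the tested genes of 4 related lists, with a bar at each median (0.08, 0.35, 0.51, 0.43 and 0.36). Diamonds mark genes whose span is over 16 times their exonic length. Pbx3, Meis2 and Tek are the lowest, and directions near 0, such as those of Hlf, Fli1 and Meis1, turn with the scaling.

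Endothelial cells also express Erg and Fli1, and megakaryocytes Fli1, so their markers are given beside these genes. Of 8 endothelial markers, 5 were above and 3 below WT 1 in both KO libraries, with sums of 106 and 108 FPKM in KO and 87.3 FPKM in WT 1, most of it from Egfl7 and Pecam1, while Cdh5 was at 0.12 and 0.09 FPKM in KO and 0.31 FPKM in WT 1. Of 7 megakaryocyte and platelet markers, 2 were above and 2 below WT 1 in both KO libraries, with sums of 106 and 56.7 FPKM in KO and 137 FPKM in WT 1. Over all genes tested, 42.5% were above and 43% below WT 1 in both KO libraries. None of either marker list was at 0 in KO or WT 1, and the part of these cells in the values of Erg and Fli1 was not tested.

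Over the 4 libraries, some of the 9 had another coding gene close to them in level and pattern. Of 14821 coding genes, those with symbols of Gm and a number or ending in Rik were left out. The nearest of the rest by Euclidean distance of log2(FPKM + 1) was Orai2 for Erg (distance 0.07), Vps45 for Hlf (0.10), Dhx35 for Prdm16 (0.10), Ergic2 for Fli1 (0.12) and Ifi35 for Gata2 (0.13). The nearest genes to the others lay further off, at 0.15 for Meis1, 0.26 for Runx1, 0.27 for Mllt3 and 0.29 for Mecom. Dhx35 was at 6.54 and 7.57 FPKM in KO, 18.9 FPKM in WT 1 and 36.7 FPKM in WT 2, close to Prdm16 in each library. With 4 libraries such closeness is a description of these values.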

How the data were processed

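RNA was measured in 4 libraries, 2 per genotype. Per the labels' protocols, RNA of sorted cells was amplified as full-length cDNA by SMART-Seq v4, without strand marks. HISAT2 2.1.0, STAR 2.7.1a, bcl2fastq and the builds mm10 and GRCm38.p5 are listed in the submitters' processing notes, with no role given. The deposited values were taken as FPKM made by the authors, which was inferred from the values: the files have no header. No source used here gives their tool or annotation.

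A file had 87703 features, 51912 of them Ensembl genes, of which 51719 were in GENCODE M21 (GRCm38), the source of symbols, coordinates, exonic lengths and spans. Tables were joined with pandas 2.3.3. The 35791 MSTRG loci stayed out of the tests. The comparisons used R 4.3.3 and limma 3.58.1 on log2(FPKM + 1), with the prior variance following intensity. This scale understates changes of low genes, and the test ran over genes with a mean of at least 1 FPKM. The design named a count test as well, and the unit decided for limma. Every adjusted p is Benjamini-Hochberg over all genes tested. Each library held cells of 3 animals, and the tests assume that no pool of animals was shared between libraries.

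Depth was estimated from single-exon genes of 600 to 4000 bp with 1 transcript, where 82.4% to 89.1% of low values lay within 0.1 of a whole fragment. It and the 3-fragment floors cover counting error only. The test was tried on simulated data in which the WT libraries had the spread of the KO pair. The trial therefore cannot show how the test behaves where WT libraries vary more, and nothing is concluded from it.

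The 9 genes, the lists and the tests were chosen with earlier results of these data known. The text names all 9, up to 4 genes per list by smallest p against WT 1, nested genes above 5 FPKM, and the nearest gene for 5 of the 9; the marker genes named were chosen after their values were seen. Classes by kb and by KO level were added after seeing the data. Protein sequences were not used here. Some genes that the rule took are not reported here.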

Additional observations from a re-analysis of the deposited data

Results flagged for a closer look

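Of the 17 genes nested off the exons of the 9 loci, which no comparison uses, 4 were above both WT libraries in both KO libraries. Over all genes tested against both WT libraries 27.1% were, but those genes have a mean of at least 1 FPKM. Nested genes such as Gm38197 and 2900018N21Rik were under 1 FPKM in every library, so that share is not a like background for them. Values this low rest on few fragments, and nothing is read from the count of 4. Gm37474 in Fli1 was at 6.45 and 6.22 FPKM in KO, against 2.39 FPKM in WT 1 and 0 in WT 2. Gm16141, antisense to Meis1, was at 1.89 and 2.79 FPKM in KO, against 0 in WT 1 and 0.69 FPKM in WT 2. 2900018N21Rik, on the same strand as Meis1, was at 0.88 FPKM in each KO library, against 0.18 FPKM in WT 1 and 0 in WT 2. Gm38197 in Mecom was at 0.94 and 0.72 FPKM in KO, against 0.25 FPKM in WT 1 and 0.42 FPKM in WT 2. No test was run on them.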

How the results depend on the processing

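None of the 9 genes passed against WT 1 under any alternative run. The number of all genes called against WT 1, 1559 as reported (72 higher and 1487 lower), moved to 221 with a filter of 1 FPKM in 2 libraries, 10026 with no filter, 701 with a pseudocount of 0.1, 2581 with quantile normalization (865 higher and 1716 lower), 3201 at a threshold of 0.1 (809 higher and 2392 lower) and 536 after the subtraction, and the cause was not tested beyond the numbers of genes tested. The number of genes tested against WT 1 differed too. It was 15867 as reported, 13848 with the filter of 1 FPKM in 2 libraries, 30258 with no filter and 14402 after the subtraction. Scaling moved the median of all genes from -0.0021 to 0.19 (equal coding sums), 0.21 (quantile) and -0.31 (short-span genes). Against WT 1, the sign turned for Mecom after the subtraction (1.43), Fli1 with quantile normalization (-0.036) and short-span scaling (-0.24), Hlf with short-span scaling (-0.19) and Meis1 with equal coding sums (0.073). Leaving out a KO library there leaves 1 library a side and values with no test, and no sign turned. Against both WT libraries, Runx1 turned with quantile normalization (-0.046), equal coding sums (-0.18) and short-span scaling (-1.51), which also turned Erg (-0.88), Fli1 (-0.77) and Hlf (-1.07). With each library left out in turn, genes called ranged from 0 to 15953 and the 9 from 0 to 7, both highest without WT replicate 1. Without WT replicate 2, 1559 genes and 0 of the 9 were called. Runx1 ranged from -0.86 (without WT replicate 1, and -0.16 without KO replicate 2) to 1.01, and Meis1 from -0.13 (without WT replicate 2) to 3.57. With the replicate number as a block, limma called 0 genes and 0 of the 9, as without it. The deviations of same-numbered libraries correlated at 0.04. The WT deviation is set by the gap between WT 1 and WT 2. That value therefore cannot tell whether same-numbered libraries were prepared together. Depth limits the WT 2 value of Gata2 (about 5.34 fragments) more than the others.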
